A study of Mus musculus with 5 samples.

Results

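The genes described here encode the machinery that brings proteins into mitochondria: the translocases of the outer membrane (TOM) and inner membrane (TIM), the import motor, the sorting and assembly channel SAMM50 and the oxidoreductase CHCHD4. They were chosen by symbol among the protein-coding genes of GRCm38 (every Timm and Tomm gene with a number in its name, Pam16, Dnajc19, Grpel1, Grpel2, Samm50 and Chchd4), which gave 31 of the 49315 genes in the tables. Poly-A RNA had been sequenced in 5 libraries of mouse heart, each from 10 mg of frozen tissue. In the HFHS-Fe group (3 libraries) the diet was rich in fat and sucrose, and in the chow-Fe group (2 libraries) it was standard chow, each for 18 weeks. All animals, controls included, had iron dextran injected intravenously once, and hearts were perfused and taken 48 hours later. No heart without iron was analysed here, so the comparison is of diets under iron. The labels give no strain, sex or age and do not say that each library is a separate mouse. The p-values thus reflect library-to-library spread, which may be technical, and HFHS hearts and chow hearts below stand for these libraries.

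Almost all mitochondrial proteins are made in the cytosol and must be imported. TOM is the common entry gate. From there, proteins with a presequence pass through the TIM23 channel and are pulled into the matrix by a motor built around mitochondrial HSP70, while metabolite carriers are escorted by small TIM chaperones to the TIM22 insertase, barrel-shaped proteins go to SAMM50, and cysteine-rich proteins of the intermembrane space are folded by CHCHD4. Heart muscle is unusually rich in mitochondria, and loss of DNAJC19, a motor component, causes a dilated cardiomyopathy in people.

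Stretches of 5 promoters are shown because they hold a match to a motif of factors known from respiratory genes and their genes went different ways without offsets. Tomm20, Pam16 and Timm8b fell, Tomm70a rose and Chchd4 did not pass. With the length offsets described below, Chchd4 was lower with both kinds and Tomm70a kept its rise only with exon length offsets. The sequences are from RefSeq (GRCm38.p6), on the strand of the gene, 5′ to 3′, and lie before the start of a RefSeq transcript; capitals mark the motif match. The Pam16 stretch lies almost wholly inside the gene by the coordinates given for Pam16 with its values, where the gene starts further upstream. For Tomm20, Chchd4 and Timm8b the RefSeq start also differs from the gene start in the counted annotation. Distances of a match given below are to the RefSeq start. For Tomm20 (chr8:126945922-126945971, minus strand), Pam16 (chr16:4624947-4624991, minus strand) and Chchd4 (chr6:91473580-91473649, minus strand) the capitals are the motif of nuclear respiratory factor 1 (NRF1). For Timm8b (chr9:50603775-50603843, plus strand) they are the motif of oestrogen-related receptors (ERR), and for Tomm70a (chr16:57121604-57121671, plus strand) that of ETS factors.
Tomm20: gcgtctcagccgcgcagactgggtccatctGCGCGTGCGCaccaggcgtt
Pam16: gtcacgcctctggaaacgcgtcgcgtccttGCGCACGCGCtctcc
Chchd4: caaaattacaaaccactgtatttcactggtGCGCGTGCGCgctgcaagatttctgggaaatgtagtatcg
Timm8b: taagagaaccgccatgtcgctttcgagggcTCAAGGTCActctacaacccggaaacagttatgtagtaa
Tomm70a: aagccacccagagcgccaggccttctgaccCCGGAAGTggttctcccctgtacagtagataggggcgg

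RefSeq windows of 300 bases, from 250 before to 50 after a start, were found for 27 of the 31 genes and searched on both strands for 4 motifs that do not overlap each other. The NRF1 motif was in the windows of 4 of the 27 genes (Chchd4, Pam16, Timm8b and Tomm20), against 5.19% of all 27025 genes with a window. The ETS motif CCGGAAGT was in 6 (Timm10, Timm10b, Timm23, Timm29, Timm8a2 and Tomm70a), against 4.31% of all genes. The YY1 motif was in Timm50 alone and the ERR motif TCAAGGTCA in Timm8b alone, against 1.00% and 0.466% of all genes. Genes with the same motif did not share a direction. Of those with the ETS motif, Timm10b and Timm23 fell without offsets, Tomm70a rose, Timm10 and Timm29 did not pass and Timm8a2 could not be tested. A match describes the letters in the window and was not tested as a binding site.

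Libraries held 14362766 to 17774735 counts, with 30.3% to 33.8% of them from mitochondrially encoded genes. Of 8 heart muscle cell markers 4 fell and 2 rose, where 18.7% of all genes tested fell and 19.4% rose. With exon length and GC offsets, described below, 4 were lower and 4 higher. With principal transcript length and GC offsets 1 was lower and 3 higher. The markers were abundant in every library. Their summed level was 54263 and 60095 CPM (counts scaled to library size) in chow hearts and 56348 to 59684 CPM in HFHS hearts. Markers of other heart and blood cells were mostly lower in HFHS hearts. All 7 fibroblast markers and all 7 macrophage markers fell, as did 5 of 7 endothelial markers and 5 of 5 red blood cell markers. With exon length and GC offsets 5 fibroblast and 6 endothelial markers were lower, and with principal transcript length and GC offsets 6 and 7. All macrophage and red blood cell markers were lower with both. In summed level, fibroblast markers were at 1199 and 1326 CPM in chow hearts and 770.7 to 837.4 CPM in HFHS hearts, endothelial markers at 1076 and 1104 against 820.8 to 847.9 CPM, macrophage markers at 414.2 and 484.8 against 161.1 to 189.4 CPM, and red blood cell markers at 1484 and 1699 against 250.2 to 523.7 CPM. Of the 6 skeletal muscle markers 3 could be tested and 1 fell, and Myh4 and Myh2 were at 0. The 6 genes summed to 1780 and 1798 CPM in chow hearts and 1374 to 1529 CPM in HFHS hearts. They include Acta1 and Ckm, which heart muscle also expresses, so the sum is not a level of skeletal muscle. The 5 brown fat markers, of which 2 could be tested and 1 rose, summed to 83.4 and 105.6 against 119.3 to 120.7 CPM. They include Ppargc1a, which heart muscle also expresses. The part of these cells in the results below was not tested. In such bulk samples fewer cells of a type and less RNA per cell cannot be told apart.

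Among import genes 13 fell in HFHS hearts, with the largest falls in Tomm7 of the outer membrane and Timm8b of the intermembrane space. Of the 31 genes, 29 had enough counts to be tested and 2, Tomm20l and Timm8a2, did not, with 0 to 2 counts per library. With edgeR's quasi-likelihood test and a Benjamini-Hochberg adjusted p of 0.05 over 14221 genes, 13 of the 29 fell, 1 rose and 15 did not pass. Over all genes tested 18.7% were lower and 19.4% higher, so the share of import genes called lower, 44.8%, was above the background and the share called higher below it. The median log2 fold change of the 29 genes was -0.25, against -0.01 for all genes tested. The falls ranged from 13.4% (Timm17a) to 52.5% (Tomm7), and only Tomm7 and Timm8b fell at least 2 fold. In 19 of the 29 genes every HFHS library was below every chow library, where 29.4% of all genes tested showed this, and in 3 genes (Tomm70a, Tomm40l and Timm44) every HFHS library was above, where 29.2% of all genes did.

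**Figure D1:**
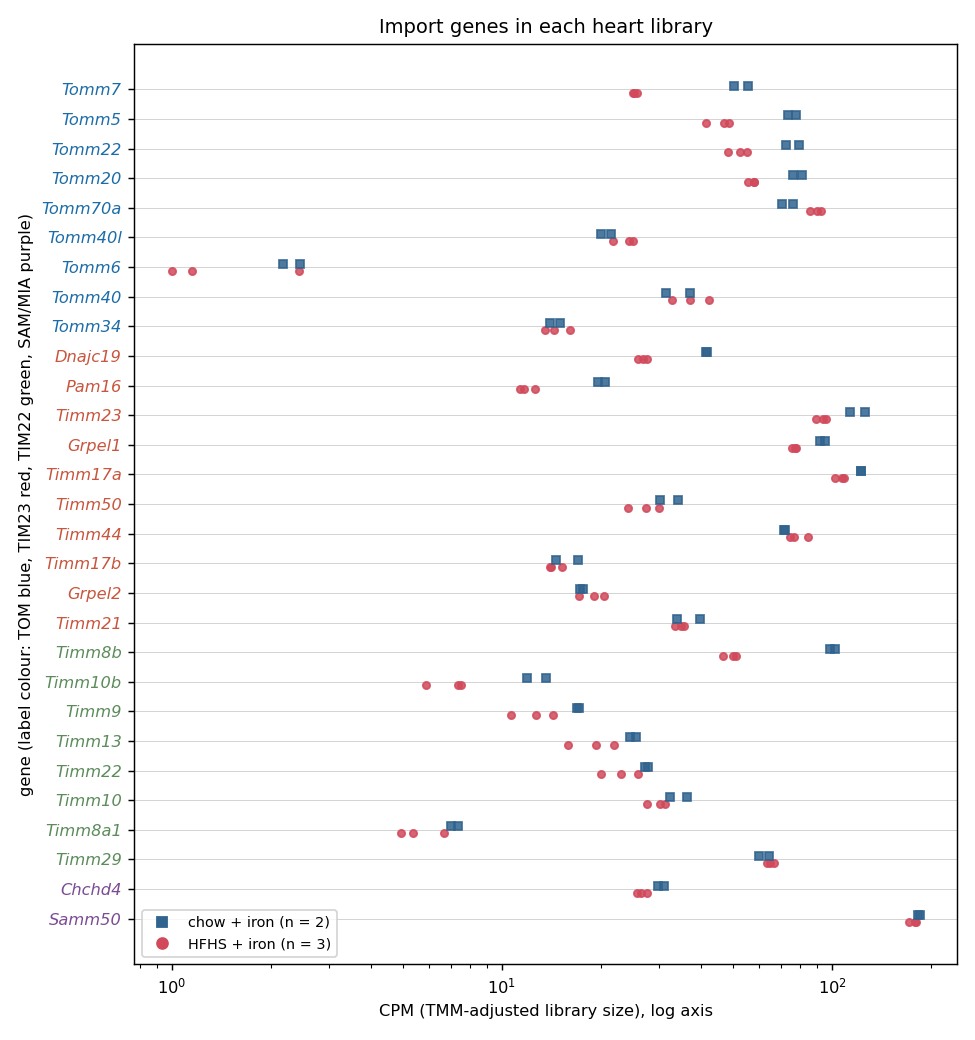
Level of each of the 29 tested import genes in each library, in CPM with TMM-adjusted library size on a log axis. Squares are the 2 chow libraries and circles the 3 HFHS libraries, and label colours mark the complexes. The squares stand to the right of the circles in 19 genes, with the widest gaps for Tomm7, Timm8b and Timm10b.

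Transcript length moved with these differences. Over all genes tested, the log2 fold change correlated with the summed exon length of the table (Spearman's rho = 0.43, across 14221 genes, which are not independent replicates) and with the length of the principal transcript of GENCODE M21 (rho = 0.48, across 14193 genes). In the shortest decile of genes by principal transcript, 57 to 1108 bases, the median log2 fold change was -0.52 and 49.2% of genes were lower; in the longest decile it was 0.36 and 2.18% were lower. Among the 29 import genes rho was 0.54 with exon length and 0.62 with principal transcript length. By either length 15 of them were in the 3 shortest deciles. By principal transcript length 19 of the 29 lay below the median of their own decile, and by exon length 15 did.

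All 29 genes were therefore also fitted with offsets that remove each library's smooth trend on length and GC content, computed once with exon length and once with principal transcript length. After exon length and GC offsets, the log2 fold changes of all genes still correlated with principal transcript length (Spearman's rho = 0.18), and at 0.03 with exon length. After principal transcript length and GC offsets these correlations were 0.03 and 0.08, so the exon length offsets left more of the trend. With exon length and GC offsets 10 import genes were lower and 3 higher (all genes: 16.4% lower, 14.4% higher), and with principal transcript length and GC offsets 11 were lower and 2 higher (all genes: 15.0% lower, 13.5% higher). The median log2 fold change moved to -0.10 and -0.09, against -0.03 and -0.02 over all genes with the same offsets. Of the 13 genes that fell, 8 were called lower with and without each kind of offset: Tomm7, Tomm5, Tomm20, Pam16, Grpel1, Timm17a, Timm8b and Timm10b. Timm23, Timm9 and Timm13 lost the call with both, Tomm22 only with exon length and Dnajc19 only with principal transcript length. Which of the annotated transcripts these hearts expressed was not measured. The lengths differ most for Dnajc19 (4027 bases of exon against a principal transcript of 659 bases), Tomm40 (4513 against 1646) and Samm50 (1673 against 4629). For Samm50, Tomm70a (3778 against 5964), Timm21 (1315 against 2418) and Tomm22 (1113 against 1569) the principal transcript is longer than all counted exons together. The same holds, by few bases, for Grpel2 (4030 against 4038). The annotation that was counted thus differs from GENCODE M21 for at least these genes. Their principal transcript offsets rest partly on bases that were not counted.

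**Figure D2:**
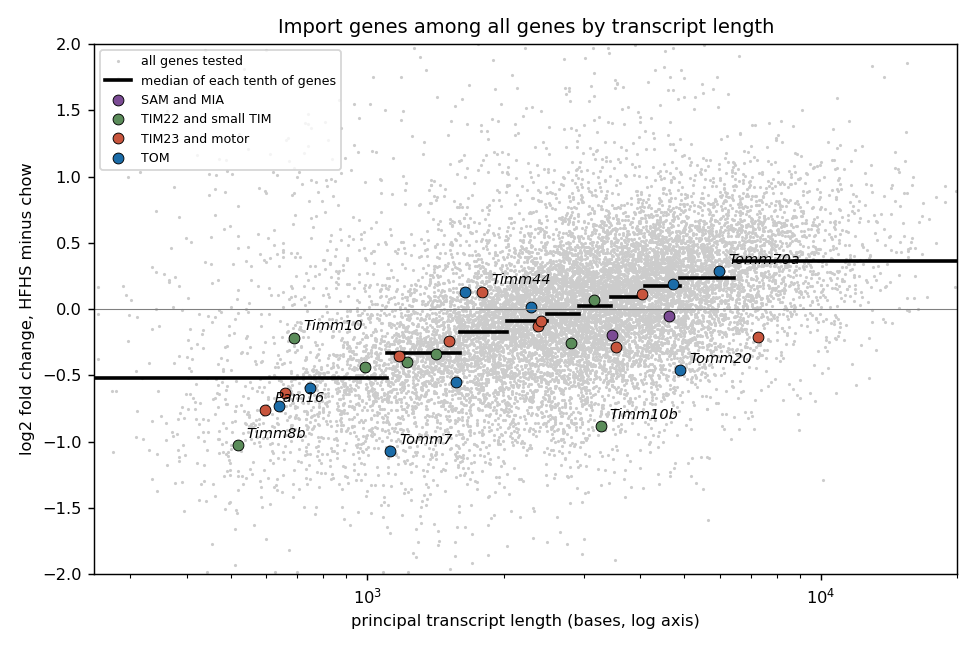
Log2 fold change (HFHS minus chow) of all genes tested (grey) and of the import genes (coloured by complex) against principal transcript length on a log axis; black bars are medians of deciles of all genes, and genes beyond the axis limits of -2 and 2, or outside the drawn lengths, are not shown. Tomm7, Timm10b and Tomm20 lie well below the bar at their length, while Timm44 and Timm10 lie above it.

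At the outer membrane Tomm7, Tomm5 and both presequence receptors fell and the carrier receptor rose. Tomm7 (ENSMUSG00000028998, chromosome 5 from 23838944 to 23844161, GRCm38) encodes a small subunit that also helps to hold the kinase PINK1 at the outer membrane. It was at 50.6 and 55.5 CPM in the chow hearts and at 25.0, 25.6 and 25.1 CPM in the HFHS hearts. The groups were far apart and the HFHS libraries nearly equal, and the log2 fold change was -1.07 (SE 0.0863), with an edgeR adjusted p of 5.97e-07. With exon length and with principal transcript length offsets it was -0.65 in both cases.

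Tomm5 (ENSMUSG00000078713, chromosome 4 from 45105208 to 45108114), another small subunit that stabilises the channel, was at 78.0 and 73.8 CPM in chow hearts and 41.4, 47.2 and 48.7 CPM in HFHS hearts. No HFHS library came near the chow level, and the fall was 39.7%, with an edgeR adjusted p of 1.86e-05. Its log2 fold change of -0.73 was -0.33 with exon length offsets and GC, and -0.28 with principal transcript length, both still past the threshold. Tomm6, the remaining small subunit, was at 2.17 and 2.44 CPM in chow hearts and 0.999, 1.15 and 2.43 CPM in HFHS hearts. It rested on 16 to 44 counts per library, its groups overlapped and it did not pass (edgeR adjusted p = 0.224). Without HFHS replicate 3 its log2 fold change moved from -0.59 to -1.10 and it passed (edgeR adjusted p = 0.0283, range over the alternatives 0.0202 to 0.766); the lowest p was that of the replicate block. Its exons share 76.0% of their bases with the same-strand gene Gm21981 and 19.4% with the antisense Tomm6os, so its level is uncertain.

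TOMM20 and TOMM22 are the receptors that bind presequences. Tomm20 (ENSMUSG00000093904, chromosome 8 from 126930667 to 126945844), whose promoter match begins 20 bases before the RefSeq start, was at 81.1 and 76.0 CPM in chow hearts and 55.5, 57.9 and 58.0 CPM in HFHS hearts. All HFHS values lay below both chow values, a difference of -0.46 on the log2 scale (SE 0.0761; edgeR adjusted p = 0.000302). It has a long transcript, 4906 bases of exon, and its log2 fold change was larger with offsets, -0.56 and -0.64. Tomm22 (ENSMUSG00000022427, chromosome 15 from 79670861 to 79672862) was at 79.6 and 72.3 CPM in chow hearts and 52.5, 48.2 and 55.1 CPM in HFHS hearts, a fall of 31.6% with an edgeR adjusted p of 0.000169. With exon length and GC offsets its log2 fold change went from -0.55 to -0.17 and it did not pass (edgeR adjusted p = 0.137; range over the alternatives 1.19e-08 to 0.143). Tomm20l, a TOMM20-like gene known from the testis, had 1 count in 1 HFHS library and 0 in the others, where a count of 0 allows up to 0.169 to 0.199 CPM of total counts.

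TOMM70 receives carriers and other hydrophobic proteins from cytosolic chaperones. Its gene Tomm70a (ENSMUSG00000022752, chromosome 16 from 57121714 to 57154530) was at 76.4 and 70.7 CPM in chow hearts and 92.3, 90.4 and 86.0 CPM in HFHS hearts. It was the only import gene to rise in the fit without offsets, 1.22 fold, or 0.28 on the log2 scale (SE 0.0772; edgeR adjusted p = 0.00985). The call was lost without chow replicate 2 (log2 fold change 0.23, edgeR adjusted p = 0.0652), with library totals as the only scaling (0.19, 0.0640) and with principal transcript length and GC offsets (0.06, 0.551), the highest adjusted p of any alternative; the lowest was 0.00404. With exon length and GC offsets it was 0.31 and passed.

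The channel itself did not pass without offsets. Tomm40, the barrel through which precursors cross, was at 37.2 and 31.4 CPM in chow hearts and 32.9, 37.3 and 42.3 CPM in HFHS hearts, and the groups overlapped (edgeR adjusted p = 0.416). With principal transcript length and GC offsets it rose, with a log2 fold change of 0.32 and an edgeR adjusted p of 0.0280 (range over the alternatives 0.0280 to 0.970). Its paralog Tomm40l was at 21.4 and 19.9 CPM in chow hearts and 21.7, 24.2 and 25.0 CPM in HFHS hearts, with an edgeR adjusted p of 0.164. Tomm40l shares 64.3% of its exon bases with Nr1i3 on the other strand, which had only 20 to 37 counts per library. The ratio of Tomm40 to Tomm40l counts was 1.74 and 1.58 in chow hearts and 1.52, 1.54 and 1.69 in HFHS hearts, so it overlapped between diets. Tomm34, a cytosolic cochaperone for precursors rather than a membrane subunit, was at 14.0 and 14.9 CPM in chow hearts and 13.5, 16.1 and 14.4 CPM in HFHS hearts, and did not pass (edgeR adjusted p = 0.926).

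At the inner membrane, 5 of 10 genes of the TIM23 channel and its motor fell without offsets and none rose (all genes: 18.7% lower, 19.4% higher). With exon length and GC offsets 4 were lower and 1 higher (all genes: 16.4% and 14.4%). With principal transcript length and GC offsets 3 were lower and 1 higher (all genes: 15.0% and 13.5%). Of these 10 genes, the motor's J-domain pair fell most without offsets. Pam16 (ENSMUSG00000014301, chromosome 16 from 4616464 to 4624988) encodes the J-like partner that restrains DNAJC19. It was at 19.5 and 20.5 CPM in chow hearts and 11.3, 11.6 and 12.6 CPM in HFHS hearts, with no overlap. The log2 fold change was -0.76 (SE 0.110) with an edgeR adjusted p of 0.000104. With the exon and principal transcript length offsets it was -0.37 and -0.33, still past the threshold. Pam16 shares 8.63% of its exon bases with Glis2 on the other strand, which had 99 to 166 counts per library.

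Dnajc19 (ENSMUSG00000027679, chromosome 3 from 34056020 to 34081321) encodes the J protein that stimulates mitochondrial HSP70. It was at 41.7 and 41.4 CPM in chow hearts and 25.9, 26.7 and 27.6 CPM in HFHS hearts. Both groups were tight and apart, with a fall of 35.7% and an edgeR adjusted p of 5.88e-05. The log2 fold change of -0.64 was -0.63 with exon length and GC offsets but -0.15 with principal transcript length and GC offsets (edgeR adjusted p = 0.196; lowest over the alternatives 6.78e-09). Its processed pseudogene Dnajc19-ps had 0 to 5 counts per library, against 372 to 771 for Dnajc19. Dnajc19 shares 4.42% of its exon bases with Fxr1 on the other strand, which had 2840 to 3498 counts per library.

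GRPEL1 and GRPEL2 exchange the nucleotide of mitochondrial HSP70. Grpel1 (ENSMUSG00000029198, chromosome 5 from 36464998 to 36474080) was at 95.4 and 91.9 CPM in chow hearts and 75.8, 77.6 and 77.1 CPM in HFHS hearts, a fall of 17.97% with an edgeR adjusted p of 0.00641, and it was still lower with exon and principal transcript length and GC offsets (log2 fold changes of -0.24 and -0.37). Its paralog Grpel2 was at 17.6 and 17.2 CPM in chow hearts and 17.2, 18.9 and 20.4 CPM in HFHS hearts, and did not pass (edgeR adjusted p = 0.464). The ratio of Grpel1 to Grpel2 was 5.41 and 5.34 in chow hearts and 4.41, 4.09 and 3.78 in HFHS hearts. All HFHS ratios were below both chow ratios, and both genes have similar exon lengths of 3528 and 4030 bases. The difference between the paralogs was not tested. Grpel1 shares 11.6% of its exon bases with Tada2b on the other strand, which had 207 to 248 counts per library.

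Of the channel subunits Timm23 and Timm17a fell. Timm23 (ENSMUSG00000013701, chromosome 14 from 32180162 to 32201898), the pore-forming subunit, was at 125.7 and 113.0 CPM in chow hearts and 93.9, 89.5 and 96.1 CPM in HFHS hearts, a fall of 21.9% with an edgeR adjusted p of 0.00220. Its log2 fold change of -0.36 was -0.10 and -0.02 with the exon and principal transcript length offsets, with edgeR adjusted p of 0.347 and 0.900 (lowest over the alternatives 0.000126). The call for Timm23 thus held only without a length offset.

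Timm17a (ENSMUSG00000062580, chromosome 1 from 135295213 to 135313778), a channel subunit that is turned over quickly under stress, was at 122.2 and 122.3 CPM in chow hearts and 101.9, 107.0 and 108.5 CPM in HFHS hearts. The fall of 13.4% had an edgeR adjusted p of 0.0334, which was 0.125 without HFHS replicate 1, 0.0927 without HFHS replicate 2, 0.0785 without chow replicate 1, 0.0723 without chow replicate 2 and 0.0535 in DESeq2 (lowest over the alternatives 0.000146). Its exons sum to 7893 bases, and with offsets its log2 fold change went from -0.21 to -0.44 and -0.51. Timm17b, its paralog, was at 14.6 and 16.9 CPM in chow hearts and 14.1, 14.0 and 15.2 CPM in HFHS hearts, with overlap and an edgeR adjusted p of 0.432. The ratio of Timm17a to Timm17b was 8.39 and 7.22 in chow hearts and 7.22, 7.65 and 7.14 in HFHS hearts, which overlapped.

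The other TIM23 genes did not pass without offsets. Timm50, the receptor that takes presequences from TOM, was at 34.1 and 30.2 CPM in chow hearts and 24.1, 27.3 and 30 CPM in HFHS hearts (edgeR adjusted p = 0.0879). Timm50 passed with upper quartile scaling, with library totals, with the replicate block and without HFHS replicate 3, with adjusted p from 0.0206 at the lowest, while the highest was 0.931. Timm44, the tether of the motor, was at 71.5 and 72.0 CPM in chow hearts and 84.6, 74.6 and 76.6 CPM in HFHS hearts (edgeR adjusted p = 0.217), and rose with principal transcript length and GC offsets, with a log2 fold change of 0.29 and an adjusted p of 0.0112 (highest over the alternatives 0.747). Timm21, which links TIM23 to the respiratory chain, was at 39.9 and 34.0 CPM in chow hearts and 34.8, 33.5 and 35.5 CPM in HFHS hearts. It did not pass (edgeR adjusted p = 0.468) and was higher with exon length and GC offsets (log2 fold change 0.30, adjusted p 0.0177, highest over the alternatives 0.878).

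Of 8 tested genes of the TIM22 pathway 4 fell without offsets and none rose (all genes: 18.7% lower, 19.4% higher). With exon length and GC offsets 2 were lower and 0 higher (all genes: 16.4% and 14.4%). With principal transcript length and GC offsets 2 were also lower and 0 higher (all genes: 15.0% and 13.5%). The 4 genes that fell without offsets all encode small TIM proteins. These are chaperones of the intermembrane space with paired cysteines: TIMM9 and TIMM10 form one hexamer, TIMM8 and TIMM13 another, and TIMM10B docks on the TIM22 insertase. Timm8b (ENSMUSG00000039016, chromosome 9 from 50603910 to 50605320) was at 98.7 and 101.9 CPM in chow hearts and 50.1, 46.7 and 51.0 CPM in HFHS hearts. The chow libraries were about equal and all HFHS libraries far below, a difference of -1.02 on the log2 scale (SE 0.0762; edgeR adjusted p = 3.03e-07). Timm8b is also the shortest tested import gene, with 518 bases of exon, and its log2 fold change was -0.67 with exon length and GC offsets and -0.60 with principal transcript length, both past the threshold. It shares 15.6% of its exon bases with Nkapd1 on the other strand, which had 185 to 314 counts per library. Its promoter is the one shown above with the ERR motif, which begins 96 bases before the RefSeq start.

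Timm8a1, the mouse counterpart of the human deafness-dystonia gene, was at 7.36 and 6.999 CPM in chow hearts and 6.68, 5.38 and 4.93 CPM in HFHS hearts. The groups did not overlap but the difference did not pass (edgeR adjusted p = 0.152). The ratio of Timm8b to Timm8a1 was 13.4 and 14.6 in chow hearts and 7.505, 8.68 and 10.3 in HFHS hearts; this difference between the paralogs was not tested, and their exon lengths differ (518 and 1421 bases). Timm8a2 had 2 counts in 1 library of each diet and 0 in the others.

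Timm10b (ENSMUSG00000089847, chromosome 7 from 105640056 to 105643637) was at 13.6 and 11.9 CPM in chow hearts and 5.87, 7.54 and 7.37 CPM in HFHS hearts, with 94 to 252 counts per library. The fall of 45.9% was -0.89 on the log2 scale (SE 0.151; edgeR adjusted p = 0.000372). With offsets it was -0.88 and -0.95, so of all 29 genes it was the lowest with either kind of length offset. It shares 10.5% of its exon bases with Gm45799 on the same strand and 7.73% with Arfip2 on the other, which had 206 to 318 counts per library.

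Timm9 (ENSMUSG00000021079) was at 17.1 and 16.9 CPM in chow hearts and 14.2, 10.6 and 12.7 CPM in HFHS hearts, a fall of 26.1% with an edgeR adjusted p of 0.0156. Without HFHS replicate 2 the adjusted p was 0.0766 and without chow replicate 1 it was 0.0574, and with offsets the log2 fold change of -0.44 was -0.02 and -0.01, with edgeR adjusted p up to 0.951 (lowest over the alternatives 0.00453). Timm13 (ENSMUSG00000020219) was at 25.5 and 24.4 CPM in chow hearts and 15.8, 19.3 and 21.9 CPM in HFHS hearts, a fall of 24.0% with an edgeR adjusted p of 0.0211. Without HFHS replicate 1 its log2 fold change moved from -0.40 to -0.27 (adjusted p 0.0912), and the call was also lost without HFHS replicate 2 (0.0553) and without chow replicate 1 (0.0826). With offsets it was -0.06 and -0.09, with adjusted p of 0.696 and 0.603 (range over the alternatives 0.000839 to 0.868). The HFHS libraries of both genes were uneven, and their calls were the least stable of the small TIM genes that fell.

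Timm10, the partner of Timm9 in the hexamer, was at 36.4 and 32.3 CPM in chow hearts and 30.1, 27.4 and 31.1 CPM in HFHS hearts and did not pass (edgeR adjusted p = 0.0933, range over the alternatives 0.0222 to 0.458). Its log2 fold change of -0.22 turned positive with offsets, 0.18 and 0.22. Timm22, the insertase for carriers, was at 27.7 and 27.1 CPM in chow hearts and 23.0, 19.95 and 25.9 CPM in HFHS hearts, below chow in every library but without passing (edgeR adjusted p = 0.0882, range over the alternatives 0.0151 to 0.315). Timm29, its accessory subunit, was at 60.0 and 64.3 CPM in chow hearts and 66.6, 64.7 and 63.7 CPM in HFHS hearts, with overlap (edgeR adjusted p = 0.543).

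Samm50 and Chchd4 did not pass without offsets. Samm50 was the import gene with the highest CPM, at 184.8 and 181.9 in chow hearts and 171.3, 179.6 and 178.5 in HFHS hearts (log2 fold change -0.06, edgeR adjusted p = 0.565). It was higher with exon length and GC offsets (0.22, edgeR adjusted p = 0.0193) and lower with principal transcript length and GC offsets (-0.28, edgeR adjusted p = 0.00660), so no direction can be given for it; its highest adjusted p over the alternatives was 0.798. Chchd4, whose NRF1 match begins 196 bases before the RefSeq start, was at 31.1 and 29.7 CPM in chow hearts and 26.4, 25.6 and 27.6 CPM in HFHS hearts. It did not pass without offsets (edgeR adjusted p = 0.106) and was lower with exon and principal transcript length and GC offsets (log2 fold changes of -0.30 and -0.25, adjusted p of 0.0225 and 0.0471, highest over the alternatives 0.321).

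**Figure D3:**
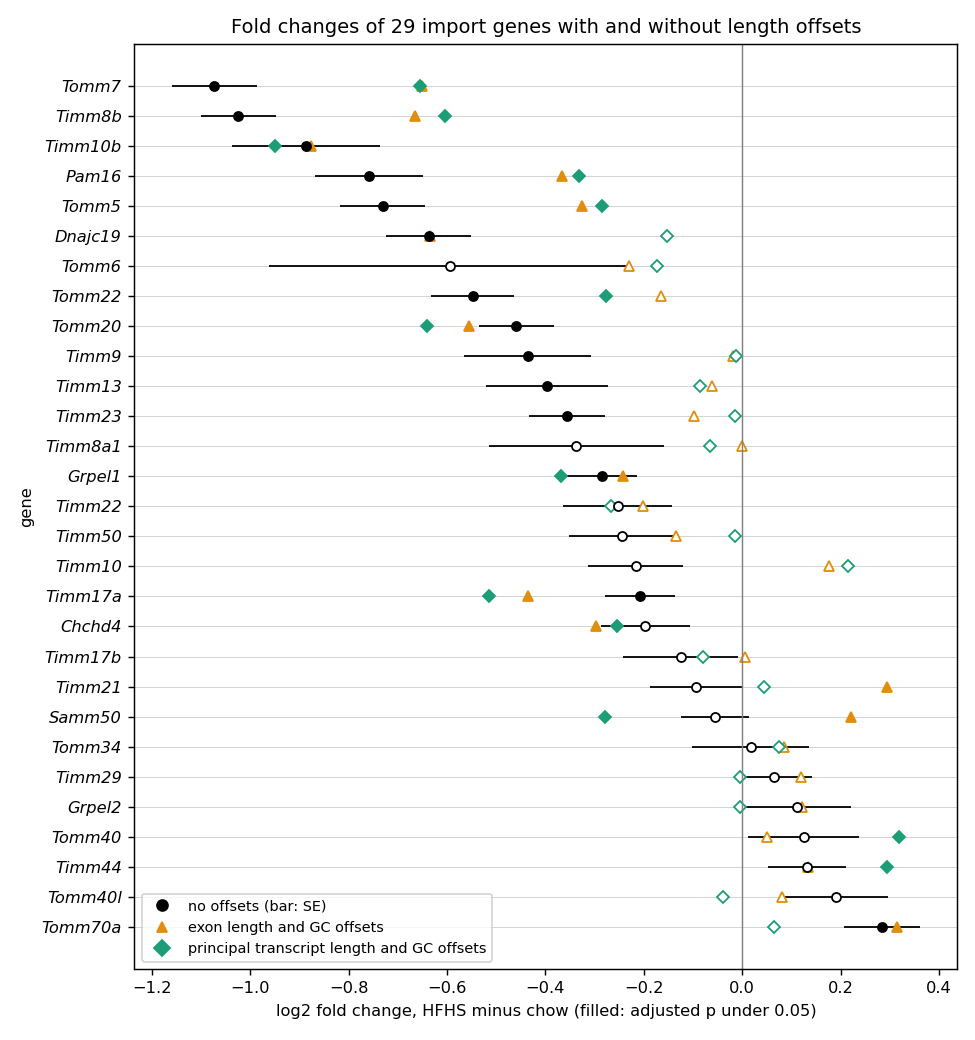
Log2 fold change (HFHS minus chow) of the 29 tested import genes without offsets (circles, bars are SE) and with exon length and GC offsets (triangles) or principal transcript length and GC offsets (diamonds); filled symbols have an adjusted p under 0.05. All 3 symbols are filled and left of 0 for Tomm7, Timm8b, Timm10b, Pam16, Tomm5, Tomm20, Grpel1 and Timm17a, while Samm50 has filled symbols on either side of 0.

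Summed over each complex, normalised counts of TOM genes were 440.5 and 417.1 CPM in chow hearts and 335.7 to 357.1 CPM in HFHS hearts. The TIM22 genes went from 286.3 and 285.8 CPM to 201.6 to 218.7 CPM, and the TIM23 genes from 582.2 and 559.4 CPM to 480.8 to 499.7 CPM. HFHS sums were below chow sums in each of these complexes and amounted to 80.9%, 73.7% and 85.5% of the chow mean. For Samm50 and Chchd4 together the share was 95.0%. No length offsets were applied to these sums, and abundant genes weigh most in them. Much of the TIM22 drop came from Timm8b, the shortest tested import gene. Its mean was 100.3 CPM under chow and 49.3 under HFHS, where the mean TIM22 sums were 286.1 and 210.9. The TIM22 share thus does not describe a fall of equal size across its genes. Scaled per kilobase of principal transcript, the highest level in chow hearts was that of Timm8b, with 193.7 CPM per kilobase, followed by Tomm5 with 118.8 and Timm23 with 101.7; per kilobase of summed exons Samm50, with 109.6, came after Timm8b. In HFHS hearts these levels were 95.2, 71.6 and 79.4 CPM per kilobase.

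Other genes of protein import and processing were looked at from a list of 21, all of which could be tested. Of these 6 rose, 8 fell and 7 did not pass, with a median log2 fold change of -0.15; of all genes 19.4% rose and 18.7% fell. With exon length and GC offsets 6 were higher and 7 lower (all genes: 14.4% and 16.4%), and the median was -0.07. With principal transcript length and GC offsets 6 were higher and 6 lower (all genes: 13.5% and 15.0%), and the median turned positive, 0.07. The falls with the smallest p were those of Immp1l, a subunit of the inner membrane peptidase (2.02 fold lower, edgeR adjusted p 7.08e-07), Hspe1, the matrix cochaperonin (1.73 fold lower), and Dnajc15, a J protein of the import motor related to DNAJC19 (1.73 fold lower). The rises with the smallest p were those of Xpnpep3, a mitochondrial aminopeptidase (1.82 fold higher, edgeR adjusted p 6.71e-05), Pmpca, a subunit of the presequence peptidase (1.40 fold higher), and Pitrm1, which degrades cleaved presequences (1.41 fold higher). Hspa9, the HSP70 of the motor, rose 1.20 fold. Of its partners Pam16, Dnajc19 and Grpel1 fell, though Dnajc19 did not pass with principal transcript length and GC offsets. Timm44 and Grpel2 had positive log2 fold changes of 0.13 and 0.11 that did not pass without offsets. Timm44 was higher with principal transcript length and GC offsets. Hspd1, the chaperonin partner of Hspe1, rose 1.22 fold. The 8 genes named from this list kept their calls and directions with the exon length offsets and with the principal transcript length and GC offsets. For Dnajc15 (6193 against 648 bases) and Pitrm1 (3906 against 3524) the principal transcript is longer than the counted exons.

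Twin CX9C proteins are small proteins with paired cysteines that are known or likely clients of CHCHD4. Of 22 genes listed for them 18 were lower, 1 was higher and 3 did not pass, with a median log2 fold change of -0.62. The list includes Pet100, a complex IV assembly gene whose protein lacks these paired cysteines. Pet100 was among those lower (log2 fold change -0.94) and stayed lower with both kinds of offset, so it is part of the counts below. Over all genes tested 18.7% were lower and 19.4% higher. Uqcrh of complex III (1.90 fold lower, edgeR adjusted p 2.09e-07), the mitochondrial ribosome protein gene Chchd1 (2.10 fold lower) and Cox6b1 of complex IV (1.73 fold lower) had the smallest p, and the complex IV assembly gene Coa5 rose 1.497 fold. The median principal transcript of the 22 genes was 1104.5 bases, against 1790 for the import genes and 2937 for all genes. In the shortest decile of all genes by this length, 57 to 1108 bases, 49.2% were lower. With exon length and GC offsets 11 of the 22 were lower and 1 higher (all genes: 16.4% and 14.4%), and the median was -0.29. With principal transcript length and GC offsets 10 were lower and 1 higher (all genes: 15.0% and 13.5%), and the median was -0.24. Of 7 genes of MICOS, the complex that shapes the cristae and binds SAMM50, 5 fell and 1 rose (all genes: 18.7% and 19.4%). Minos1 and 2410015M20Rik were 1.86 and 1.87 fold lower, and Chchd3, also counted among the twin CX9C genes, 1.32 fold lower, while Immt, the large core subunit, rose 1.16 fold. The log2 fold change of Immt was 0.21 without offsets and with principal transcript length and GC offsets but -0.11 with exon length and GC offsets, and Chchd3 lost its call with the principal transcript offsets (edgeR adjusted p = 0.0881 there, 0.00438 with exon length and GC). Without offsets the median of the 7 was -0.38. In MICOS 3 genes were lower and 0 higher with exon length and GC offsets (all genes: 16.4% and 14.4%), with a median of -0.21. With principal transcript length and GC offsets 2 were lower and 1 higher (all genes: 15.0% and 13.5%), with a median of 0.08.

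**Figure D4:**
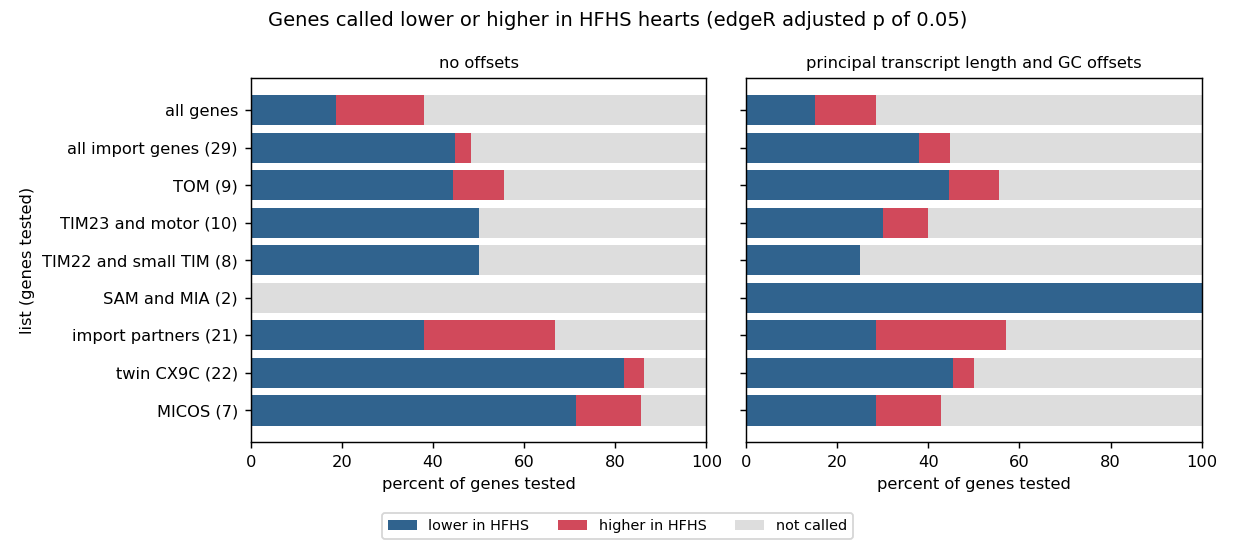
Percent of genes called lower (blue), higher (red) or not called (grey) in HFHS hearts at an edgeR adjusted p of 0.05, for all genes, all import genes, each complex and 3 lists of partner genes, without offsets (left) and with principal transcript length and GC offsets (right); numbers of genes tested are in parentheses. Import genes are lower in 44.8% without offsets and 37.9% with them, against 18.7% and 15.0% of all genes.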

How the data were processed

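RNA was measured in 3 HFHS-Fe and 2 chow-Fe heart libraries. The deposited values are raw counts per Ensembl gene with, per the file headers, the exon length. Per the submitters' processing notes the tools were Trimmomatic 0.36, STAR 2.5.2b and featureCounts in Subread 1.5.2, and the build GRCm38. No option, strand setting, rule for multi-mapping reads or annotation release is named there, so reads of overlapping genes or near-identical copies may be counted for either. Symbols, transcript lengths and GC content came from GENCODE M21, which held 49056 of 49315 genes; GC was known for 99.8% of genes tested. The principal transcript has the best APPRIS rank, and is the longest where tied.

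The test was edgeR 4.0.16 (R 4.3.3) with filterByExpr, TMM, glmQLFit and glmQLFTest on diet. SE is the log2 fold change over the root of F. CPM uses TMM-adjusted library sizes, except marker sums and the limits for a count of 0, which use total counts. Offsets remove a smooth trend per library (mgcv 1.9.3). Alternatives were other scaling and filters, DESeq2 1.42.0, limma-voom (limma 3.58.1), 1 library left out, a replicate block, and offsets, of which those on principal transcripts were added after seeing the data. Where a library has 0 counts, up to 3 are allowed for; this is counting error alone. Libraries of a group differed by more than sampling noise (chi-square per degree of freedom 2.64 to 8.84). Genes, lists and motifs were chosen with earlier results of these data known. Every import gene is given in every library where tested; full statistics went to the 3 genes with the smallest p of each complex, genes called higher and paralog pairs, and to others by the same tests. From each partner list the 3 smallest p in each direction are named. Hspa9 and Hspd1 were chosen after their values were seen.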

Additional observations from a re-analysis of the deposited data

How the results depend on the processing

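The count of 13 import genes lower in HFHS hearts ranged from 10 to 17 over 19 alternatives (10 to 16 when a library was left out), and 7 genes (Tomm7, Tomm5, Tomm20, Pam16, Grpel1, Timm8b and Timm10b) were called lower in all of them. The count of genes higher was 1. It was 0 with library totals only, 3 with exon length offsets with or without GC, 2 with the replicate block and exon length offsets, 2 with principal transcript length and GC offsets, and 0 to 1 when a library was left out. The median log2 fold change of -0.25 was -0.35 with library totals, -0.087 with exon length offsets, -0.10 with GC added and -0.086 with principal transcript length and GC. The replicate block gave 16 import genes lower; together with exon length offsets, the median was -0.14 and 1825 of all genes were higher (2756 without either), and with GC added -0.12 and 1774. Only 2 replicate numbers are shared and nothing says that they pair mice. Deviations from the group mean correlated at 0.03 for both pairs of libraries with the same number. The deviations of the 2 chow libraries mirror each other, so these values are not independent and cannot decide on pairing. With library totals the median of all genes was -0.11, and 37.4% of all calls were higher, against 50.9% with TMM.

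None of the 13 genes that fell changed sign, while 10 others did. In order of exon length, exon length and GC, block with exon length, block with exon length and GC, and principal transcript offsets, Timm10 was 0.18, 0.18, 0.16, 0.15 and 0.22 and Timm21 0.26, 0.30, 0.25, 0.28 and 0.045. In the first 4 of these Samm50 was 0.23, 0.22, 0.23 and 0.22. Leaving out a library, Timm21 ranged from -0.21 (without chow replicate 2) to 0.027 (without chow replicate 1). Timm17b was 0.014 with exon length and 0.0047 with GC added, Timm8a1 0.00026 with exon length and GC and 0.094 and 0.082 with the block added, and Tomm40 -0.028 and -0.020 with the block and these offsets. With principal transcript offsets Tomm40l was -0.039, Grpel2 -0.0038 and Timm29 -0.0045; Timm29 was -0.029 with library totals. Tomm34 was -0.022 with upper quartile scaling and -0.077 with library totals, and ranged from -0.052 (without HFHS replicate 2) to 0.077 (without HFHS replicate 1) when a library was left out. The offsets lower the weight of length by construction; the causes of the other changes were not tested. Without a chow library, the remaining one is assumed to vary like the HFHS group. The lowest counts were those of Tomm6, 16 to 44 per library, and of the 2 untested genes, 0 to 2.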
